A study of Mus musculus with 24 samples.

Results

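A set of non-coding RNA genes was followed across the nucleus accumbens (NAc) libraries, taken from a list of names: 4 structural RNAs (Rn7sk, Rmrp, Rpph1 and Terc) and 5 small nucleolar RNA (snoRNA) host genes (Gas5, Snhg1, Snhg6, Snhg8 and Snhg12). They were 9 of 52636 genes in the count tables, and all 9 passed the filter on low counts in every comparison. The names were chosen as a functional class, without a measured value in the rule, but with earlier results of these data known.

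The animals were C57BL/6 mice aged 50 days (P50), in 4 groups of 6, made up of Con and MSUS animals of each sex. MSUS stands for maternal separation combined with unpredictable maternal stress. Per the design text of the series the pups were separated for 2 h per day from postnatal day 1 to 14, whereas the study's methods give a longer daily separation, and Con animals were not separated. Each animal gave 1 library of total RNA from NAc tissue punches of both hemispheres, depleted of ribosomal RNA and not selected for poly(A) tails, so RNAs without a tail could be counted. Litters were not given in the labels, so p-values measure the spread between these 24 animals.

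Between 39923666 and 70575745 read pairs were assigned to genes per library. The 9 summed medium spiny neuron markers, the defining cells of the NAc, were expressed in every group. Pairs outside all annotated exons on the strand counted are called pairs in no gene here. They include pairs in introns and on the opposite strand of genes as well as between genes. Their share of uniquely mapped pairs was 31.0 to 34.8% in Con females and 36.3 to 43.9% in MSUS females, without overlap. In Con males the share was 34.7 to 40.6% and in MSUS males 32.2 to 44.7%. With this share as a covariate, 0 genes passed the threshold in females by edgeR's quasi-likelihood test, so it and MSUS cannot be told apart there.

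The structural RNAs act as RNA. Rn7sk encodes 7SK, the RNA polymerase III transcript that, with HEXIM and LARP7 proteins, holds the elongation factor P-TEFb inactive. Rmrp is the RNA of RNase MRP, which cuts ribosomal RNA precursors, and Rpph1 is the catalytic RNA of RNase P, which trims the 5′ ends of tRNA precursors. Terc is the template RNA of telomerase. The Snhg genes and Gas5 carry box C/D or H/ACA snoRNAs in their introns, and their spliced RNAs are usually made from pyrimidine-rich starts of the terminal oligopyrimidine kind and removed by nonsense-mediated decay during translation.

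The 4 structural RNAs are single-exon genes on the minus strand in GRCm38. Rn7sk lies at chr9:78175303-78175633, Rmrp at chr4:43492788-43493058, Rpph1 at chr14:50807449-50807767 and Terc at chr3:96414437-96414859. Parts of them are shown because they bear on what is bound or on what could be counted. The capitals mark GATC in Rn7sk, found 3 times in the RNA, all within the first 110 bases, where HEXIM binds. In Rmrp they mark the 124 bases inside an exon of Ccdc107, a protein-coding gene on the opposite strand. In Rpph1 they mark the 233 bases inside an annotated exon of Ccnb1ip1 on the same strand, and in Terc the CTAACCCT of the telomere repeat template.
Rn7sk bases 1 to 110: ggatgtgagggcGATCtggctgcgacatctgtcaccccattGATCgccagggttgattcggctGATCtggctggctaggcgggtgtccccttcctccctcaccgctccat
Rmrp bases 1 to 271: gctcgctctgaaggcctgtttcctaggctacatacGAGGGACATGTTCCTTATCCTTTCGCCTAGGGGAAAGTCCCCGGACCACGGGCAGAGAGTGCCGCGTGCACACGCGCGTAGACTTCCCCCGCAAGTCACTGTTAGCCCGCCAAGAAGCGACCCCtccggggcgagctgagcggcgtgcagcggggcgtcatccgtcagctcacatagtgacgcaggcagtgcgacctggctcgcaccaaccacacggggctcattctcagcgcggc
Rpph1 bases 1 to 300: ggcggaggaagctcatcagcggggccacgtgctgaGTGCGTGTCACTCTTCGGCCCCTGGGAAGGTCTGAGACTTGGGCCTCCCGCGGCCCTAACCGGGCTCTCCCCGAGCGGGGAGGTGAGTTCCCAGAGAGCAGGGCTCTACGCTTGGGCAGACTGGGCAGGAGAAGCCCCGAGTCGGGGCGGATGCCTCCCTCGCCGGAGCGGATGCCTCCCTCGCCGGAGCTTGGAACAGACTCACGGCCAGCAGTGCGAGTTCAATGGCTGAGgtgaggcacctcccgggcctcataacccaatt
Terc bases 1 to 100: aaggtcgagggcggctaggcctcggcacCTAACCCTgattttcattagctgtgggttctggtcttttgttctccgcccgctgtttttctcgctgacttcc

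The host genes are multi-exon. Gas5 lies at chr1:161034422-161038539 on the plus strand, Snhg1 at chr19:8723475-8726443 (plus), Snhg6 at chr1:9941959-9944118 (minus), Snhg8 at chr3:123507552-123508404 (minus) and Snhg12 at chr4:132308623-132311024 (plus). Promoters of 4 of the 9 genes were in the RefSeq table (GRCm38.p6), and the 60 bases from 40 before to 20 after the start are shown for the hosts because of the start's pyrimidines. Capitals mark the longest run of C or T between 10 bases before and 20 after the start. Of the pair of Gas5 starts in the table the downstream start, at position 161035166, is shown.
Gas5, chr1:161035126-161035185, plus strand: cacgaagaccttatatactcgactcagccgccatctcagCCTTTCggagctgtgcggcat
Snhg8, chr3:123508317-123508376, minus strand: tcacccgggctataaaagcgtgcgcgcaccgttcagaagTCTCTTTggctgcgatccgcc
Snhg12, chr4:132308638-132308697, plus strand: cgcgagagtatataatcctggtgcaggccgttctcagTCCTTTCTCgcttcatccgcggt
Snhg1, chr19:8723447-8723506, plus strand: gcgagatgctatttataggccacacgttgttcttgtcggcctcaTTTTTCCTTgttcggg

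The run was 6 bases long in Gas5, 7 in Snhg8 and 9 in both Snhg12 and Snhg1. Counted from the start, its first base lay at -1 in Gas5 and Snhg8, -3 in Snhg12 and 4 in Snhg1. The Snhg1 run thus lay downstream of the annotated start and did not include it. Among 32851 promoters, 28.7% held a run of at least 6 bases in that window, 17.9% of at least 7 and 7.11% of at least 9. At the upstream Gas5 start, position 161034601, the longest run had 3 bases. TATAA on the gene's strand between 40 and 15 bases before the start was found for Snhg8 and Snhg12, against 3.52% of all promoters. The octamer ATTTGCAT, searched on both strands in the 250 bases before the start, was found in none of the 5 member starts and in 1.60% of all promoters. A match in these windows is a description only.

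Levels of the 9 RNAs spanned several orders of magnitude. Normalized counts per kb of annotated exon (counts divided by DESeq2 size factors, then by exon length) are used to compare genes, as means ± SD over all 24 animals. Rn7sk stood first at 1751110 ± 126945, and alone it took between 0.888 and 1.23% of all assigned pairs of a library. Rpph1 followed at 240954 ± 19716 and Rmrp at 160007 ± 24123. This order was the same in 24 of 24 animals, although the ranges of Rpph1 and Rmrp touched over animals. The hosts lay far below them. Gas5 averaged 841 ± 70.3 and Snhg8 749 ± 64.4, with overlapping ranges and Gas5 above Snhg8 in 23 of 24 animals. Snhg6 averaged 426 ± 29.2, Snhg12 234 ± 12.5 and Snhg1 99.2 ± 10.6, and their ranges did not overlap with one another. Terc was last at 48.4 ± 19.2, below Snhg1 in 22 of 24 animals, and rested on 5 to 45 raw counts per library. Exon lengths of the hosts include retained-intron transcripts, the whole gene span for Snhg1, Snhg8 and Snhg12, so their levels per kb depend on these models.

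**Figure D1:**
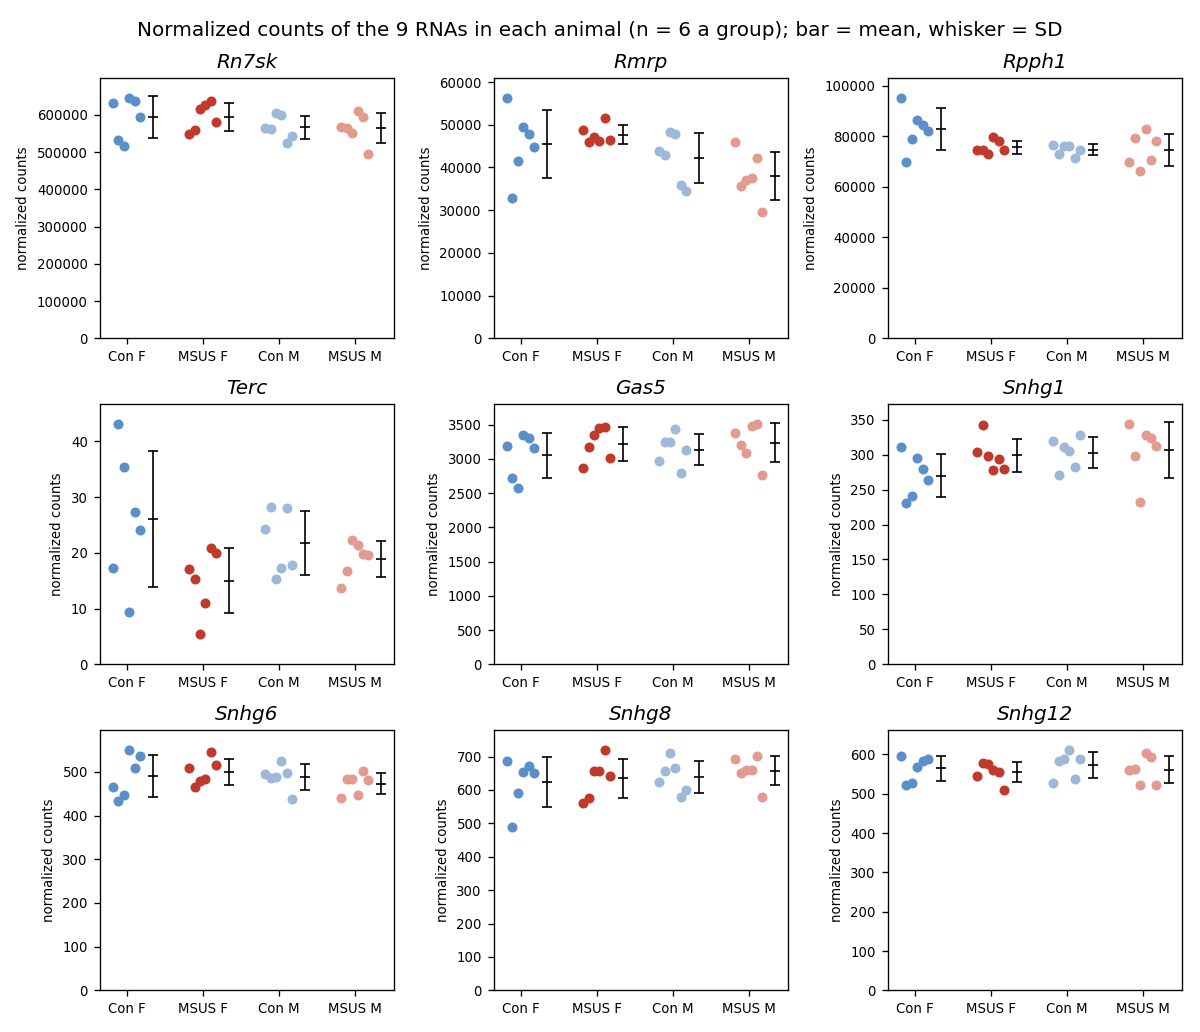
Normalized counts (vertical axis from 0, own scale per gene) of each of the 9 RNAs in each animal, by group (Con F, MSUS F, Con M, MSUS M; n = 6), with the mean and SD beside the points. The groups of most genes overlap, Terc spreads widely at 5.47 to 43.2 normalized counts, and Rmrp of MSUS males lies below that of MSUS females.

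The first comparison asked whether these RNAs differed between MSUS and Con females, the contrast in which 25.1% of the 20571 genes tested passed an adjusted p of 0.10. None of the 9 passed (edgeR's quasi-likelihood test with Benjamini-Hochberg adjustment; DESeq2 called 0 as well), and 1 of 9, Terc, had an unadjusted p under 0.05 against 32.7% of all genes. In no member did the 2 female groups separate, whereas 7.21% of all genes had groups of 6 that did not overlap. The median absolute log2 fold change was 0.073 over the members and 0.136 over all genes, which were not matched to the members in level. The members' median was 0.029. A missed threshold does not show equal levels, so the 95% intervals are given with each RNA.

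Rn7sk, the 7SK RNA, had a lowest, median and highest normalized count of 516706, 614212 and 646127 in Con females and 547554, 598232 and 637156 in MSUS females. The groups overlapped almost entirely. The means were 593475 ± 56343 and 594410 ± 37316 (SD, n = 6 each), a log2 fold change of 0.0066 (SE 0.068, 95% interval -0.14 to 0.15, adjusted p = 0.957, edgeR). The interval corresponds to between 0.908-fold and 1.11-fold. The value depended on the setting. With the share of pairs in no gene as a covariate it was 0.16 (SE 0.14, adjusted p = 0.789, edgeR), and -0.13 (SE 0.21, adjusted p = 0.999) with that share and the replicate number as a block. Offsets for length and GC content gave -0.079 (SE 0.074, adjusted p = 0.508). With the summed cortical neuron markers described below as a covariate, added after the data were seen, it was -0.16 (SE 0.053, adjusted p = 0.0896), the setting in which Rn7sk passed.

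For Rmrp the lowest, median and highest normalized counts were 32966, 46297 and 56347 in Con females and 45957, 46851 and 51603 in MSUS females. All MSUS females lay inside the Con range, with less spread between them. The log2 fold change was 0.073 (SE 0.098, 95% interval -0.14 to 0.28, adjusted p = 0.633, edgeR).

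Rpph1 gave 69791, 83272 and 95211 in Con females and 72786, 74461 and 79521 in MSUS females, and 0 of 6 MSUS females exceeded the Con median. Its mean was 82783 ± 8448 in Con and 75612 ± 2583 in MSUS females, a log2 fold change of -0.13 (SE 0.062, 95% interval -0.26 to 0.0064, adjusted p = 0.171, edgeR). The call depended on the setting. Without Con female 2, the lowest Con animal, the log2 fold change was -0.17 with an adjusted p of 0.0521 (edgeR). Without Con female 1, the highest Con animal, it was nearer to 0, at -0.081. With counts taken without regard to strand it was -0.15 with an adjusted p of 0.0908 (edgeR).

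The telomerase RNA Terc gave 9.47, 25.7 and 43.2 normalized counts in Con females and 5.47, 16.3 and 20.9 in MSUS females. Again 0 of 6 MSUS females exceeded the Con median, but the lowest Con animal lay within the MSUS range. The means were 26.1 ± 12.1 and 14.997 ± 5.86, a log2 fold change of -0.79 (SE 0.35, 95% interval -1.55 to -0.026, adjusted p = 0.140, edgeR). Without Con female 4, whose Terc was the lowest of its group, the value was -0.96 (adjusted p = 0.0537), and in a fit of all 24 animals -0.79 (adjusted p = 0.0824). Without Con female 2, whose Terc was the highest of its group, the log2 fold change was -0.58. With the cortical marker sum as a covariate it was -0.059 (SE 0.39, adjusted p = 0.950).

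Among the hosts, Gas5, a carrier of box C/D snoRNAs, gave 2573, 3173 and 3353 normalized counts in Con females and 2863, 3258 and 3467 in MSUS females. The ranges largely coincided, and the log2 fold change was 0.081 (SE 0.070, 95% interval -0.070 to 0.23, adjusted p = 0.441, edgeR). It turned to -0.125 (SE 0.046, adjusted p = 0.125) with the cortical marker sum as a covariate and was -0.012 (SE 0.083, adjusted p = 0.942) with offsets for length and GC content. Snhg1, host of further box C/D snoRNAs, gave 230, 271 and 310 in Con females and 277, 296 and 342 in MSUS females. All 6 MSUS females exceeded the Con median, although the groups overlapped. Its log2 fold change was 0.15 (SE 0.084, 95% interval -0.028 to 0.33, adjusted p = 0.220, edgeR).

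Estimates for the remaining hosts lay nearer to 0. Snhg6, host of Snord87, ranged from 433 to 551 normalized counts in Con females and from 465 to 547 in MSUS females, with a log2 fold change of 0.032 (95% interval -0.11 to 0.18). For Snhg8, host of the H/ACA snoRNA Snora24, the ranges were 488 to 688 and 560 to 721, and the log2 fold change was 0.029 (95% interval -0.15 to 0.21). Snhg12, which hosts mostly H/ACA snoRNAs, ranged from 523 to 596 in Con and from 510 to 579 in MSUS females, with a log2 fold change of -0.021 (95% interval -0.13 to 0.089). Snhg12 had the smallest spread within groups of the 9, an SD of 0.081 on the log2 scale against a median of 0.12 over 14313 genes, and Terc the widest at 0.51.

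**Figure D2:**
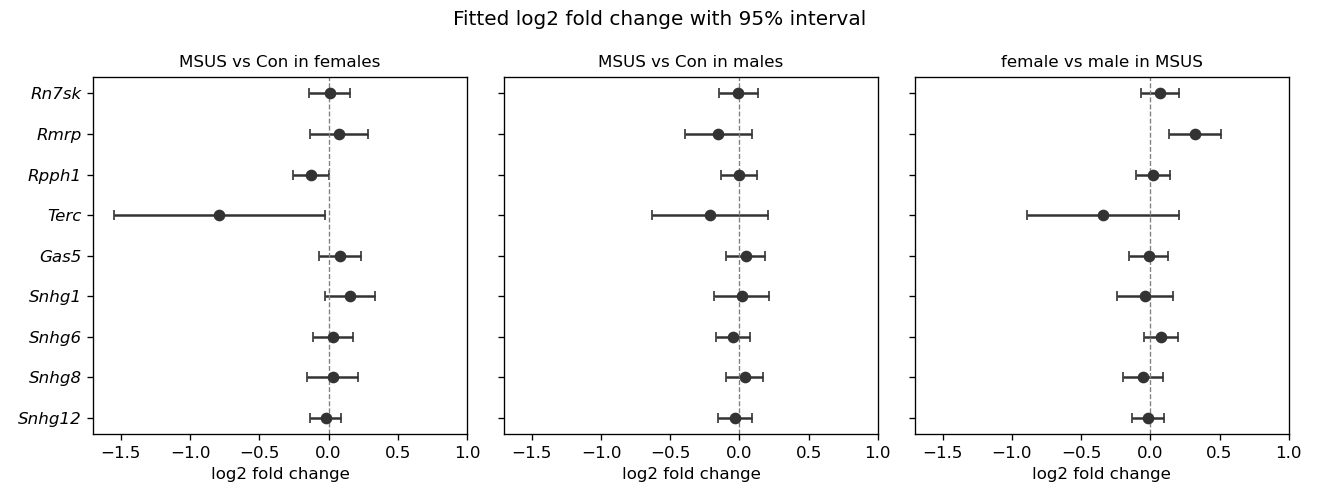
Fitted log2 fold changes (horizontal axis; points) of the 9 RNAs with 95% intervals (bars) for MSUS against Con in females, the same in males, and females against males among MSUS animals. All but Terc lie between -0.13 and 0.15 in females, the interval of Terc is widest, and Rmrp stands at 0.32 in the sex comparison.

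In males, where 0.0% of 20691 genes passed (191 at an unadjusted p under 0.05; DESeq2 also called 0), 0 of the 9 RNAs passed or had an unadjusted p under 0.05. Rmrp gave 34513, 43404 and 48287 normalized counts in Con males and 29582, 37375 and 45915 in MSUS males, and 1 of 6 MSUS males exceeded the Con median. The ranges overlapped over most of their width, with a log2 fold change of -0.15 (SE 0.11, 95% interval -0.39 to 0.088, adjusted p = 1.00, edgeR). Terc ranged from 15.3 to 28.1 in Con and from 13.7 to 22.3 in MSUS males (log2 fold change -0.21, 95% interval -0.63 to 0.21). The other 7 lay between -0.047 and 0.045 on the log2 scale. For Rn7sk the interval was -0.15 to 0.13 and for Gas5 -0.094 to 0.18.

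The group-by-sex interaction, the difference between the female and male effects, passed for 0.0% of 21500 genes by edgeR (4031 at an unadjusted p under 0.05; DESeq2 called 467 genes, none of them a member). Its estimates for the members were -0.58 for Terc (SE 0.41, 95% interval -1.44 to 0.27, adjusted p = 0.427), 0.22 for Rmrp (SE 0.15, 95% interval -0.10 to 0.54, adjusted p = 0.425) and -0.13 for Rpph1 (SE 0.086, 95% interval -0.31 to 0.049, adjusted p = 0.400). For no member did the female and male effects differ past the threshold.

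Between females and males, 0 of the 9 RNAs passed among Con animals (edgeR; 2.64% of all genes did) and 0 of 9 among MSUS animals (0.135% of all genes). Rmrp separated the sexes of the MSUS animals. Its normalized counts were 45957 to 51603 in MSUS females and 29582 to 45915 in MSUS males, so the ranges did not overlap, by a small margin, a property of 0.637% of the 20714 genes tested. The log2 fold change was 0.32 (SE 0.086, 95% interval 0.14 to 0.51, adjusted p = 0.322, edgeR), past the threshold with DESeq2 (0.33, adjusted p = 0.0478) and without MSUS male 1, the highest MSUS male (0.39, adjusted p = 0.0747, edgeR). Among Con animals Rpph1 was higher in 5 of 6 females than the male median (log2 fold change 0.16, SE 0.068, adjusted p = 0.244, edgeR).

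Animals of the same group differed from one another, and several RNAs shared these differences. Log2 CPM values (TMM-normalized, with a prior count of 2) were centred within the 4 groups, and 36 pairs of the 9 RNAs were compared over 24 animals by two-sided permutation within groups with Benjamini-Hochberg adjustment over the pairs. In 20 pairs the adjusted p of Pearson's r was under 0.10, 15 of them positive. The share of pairs of other genes that pass was not computed, so this count is not shown to be particular to these RNAs. Genes outside the 9 reached r of like size with them, as given below. Rn7sk and Gas5, a polymerase III RNA and a polymerase II host gene, moved together most closely, with r = 0.93 and rho = 0.91 (adjusted permutation p = 0.00018 and 0.00012, from the smallest p that the permutations can give). Without the 2 animals whose Rn7sk lay farthest from its group mean r was 0.90, and within library numbers 1 to 12 and 13 to 24 it was 0.98 and 0.96. Rn7sk and Snhg8 gave r = 0.85 (rho 0.83), Rmrp and Snhg8 r = 0.82 (rho 0.82), and Gas5 and Snhg12 r = 0.80 (rho 0.65), with adjusted permutation p of r at or below 0.00054 in each. Terc went the other way, with r = -0.54 against both Rn7sk and Gas5 (adjusted permutation p = 0.0409 in both). Rmrp and Rpph1, the related RNase RNAs, gave r = 0.39 (adjusted permutation p = 0.170) over all animals but 0.89 and 0.74 within the 2 library sets. All points share their libraries' depth and scaling.

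Markers of cell types moved with the same animals. The summed normalized counts of 4 cortical excitatory neuron markers (Slc17a7, Neurod6, Tbr1 and Nrgn, none at 0) ranged from 22556 to 92137 in Con females, 12392 to 41550 in MSUS females, 11926 to 63677 in Con males and 10902 to 95479 in MSUS males. Their median log2 fold change in females was -1.76. Nrgn, the 1 of 4 past the threshold, changed by -0.65 (SE 0.17), and its mean in MSUS females, 12204, was close to the lowest sum there. Slc17a7 (-1.88, SE 0.95), Neurod6 (-1.84, SE 1.07) and Tbr1 (-1.67, SE 0.82) did not pass. The r of the 4-marker sum was -0.84 with Gas5 (rho -0.76, adjusted permutation p = 0.00054) and -0.80 with Rn7sk (rho -0.74, adjusted permutation p = 0.00054). It was -0.66 with Snhg12, -0.64 with Snhg8 and 0.51 with Terc. Of 54 relations between 9 RNAs and 6 marker lists, 10 were past an adjusted p of 0.10. How often other genes pass against these lists was not computed. Without the 2 animals with the most extreme sums the r of Gas5 was -0.78, and within the 2 library sets it was -0.91 and -0.78. The 9 medium spiny neuron markers went with Gas5 at r = 0.75 (rho 0.58) and with Rn7sk at r = 0.74 (rho 0.52). Without the 2 most extreme animals these r fell to 0.56 and 0.55. Oligodendrocyte markers, which also were lower in MSUS females for 3 of 5 genes past the threshold, went with Gas5 at r = -0.63. In bulk tissue, fewer cells of a type and less RNA per cell cannot be told apart.

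**Figure D3:**
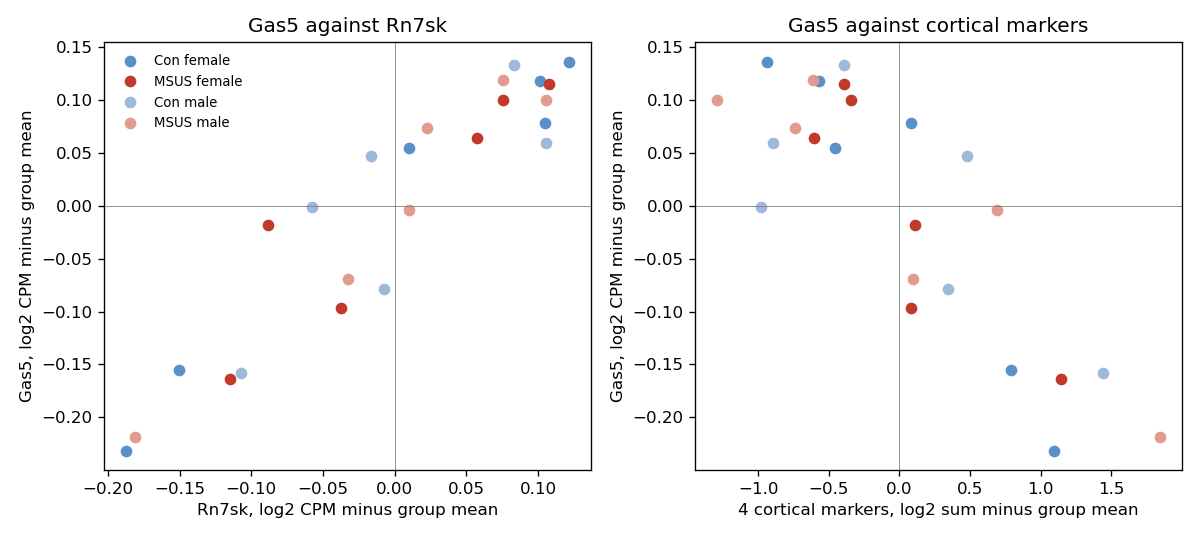
Left, Gas5 against Rn7sk, and right, Gas5 against the sum of 4 cortical excitatory neuron markers, all as log2 values minus the group mean, 1 point per animal and coloured by group. Gas5 rises with Rn7sk (r = 0.93) and falls with the cortical markers (r = -0.84), and animals of all 4 groups are spread along both.

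The genes most like each RNA in pattern were the 3 with the highest r over 24 animals, among 14305 other genes with a mean of at least 100 counts; these are descriptions. For Gas5 they were the ribosomal protein gene Rps27 (r = 0.93), Dlk1 (0.93) and 2010204K13Rik (0.93), and for Rn7sk another ribosomal protein gene, Rps21 (0.92), Sesn3 (0.91) and Pcdh10 (0.91). Snhg8 was nearest to Etfrf1 (0.93), 2900052N01Rik (0.91) and Cdh7 (0.87), and Rmrp to Zfp120 (0.90), Lin7c (0.89) and Twsg1 (0.88). Snhg12 was nearest to Ddc, the aromatic amino acid decarboxylase (0.82), Nbeal2 (0.81) and Jrk (0.81). For the other 4 RNAs the likeness was weaker. Snhg1 was nearest to Epb41l4b (0.78), Cdkl1 (0.78) and 4930563E22Rik (0.75), Terc to Fam107a (0.76), Mettl7a1 (0.74) and Kcnk13 (0.72), Snhg6 to Tada1 (0.75), Rbbp7 (0.75) and Actr3 (0.74), and Rpph1 to Cebpzos (0.73), Bex2 (0.73) and Dcaf7 (0.70).

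Over all 24 animals the share of pairs in no gene was related to none of the 9 RNAs past the threshold. The strongest relation there was that of Rpph1 (r = -0.46, rho = -0.54, permutation p = 0.0372 and 0.0221, adjusted over the 9 RNAs 0.311 and 0.199, n = 24), and its sign was not kept within library numbers 1 to 12 (r = 0.053). Within those 12 libraries Snhg6 went with the share at r = -0.72 and rho = -0.78 (permutation p adjusted over the 9 RNAs 0.108 and 0.0413), against r = -0.12 and rho = -0.021 in numbers 13 to 24 and r = -0.14 over all 24. For Rn7sk, Gas5, Snhg8 and Snhg12 r lay between 0.094 and 0.18.

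Strand decided what could be counted for Rmrp. Over all 24 animals its own strand held 1042994 counts and the opposite strand 5859. Counting without regard to strand left 17123, or 1.64% of the sense counts. A pair that overlaps the exons of both Rmrp and Ccdc107 (as annotated in GENCODE M21) then counts for neither. In those counts Rmrp was lower in MSUS females (log2 fold change -0.30, adjusted p = 0.109, edgeR), the opposite sign to the strand-specific value. Snhg6, which shares 127 exon bases with Mcmdc2 on the opposite strand, kept 78.8% of its counts. The other 7 RNAs kept between 100 and 103%, and the opposite strand held 0.180% of Rn7sk's counts and 2.92% of Terc's.

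**Figure D4:**
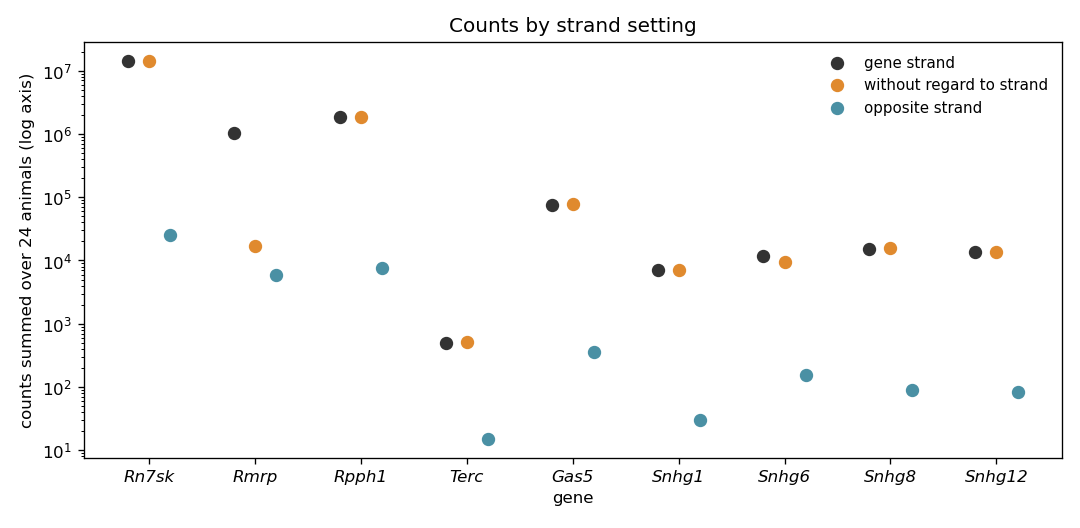
Counts summed over 24 animals (vertical log axis) for each of the 9 RNAs on the gene's strand, without regard to strand and on the opposite strand. Rmrp drops from 1042994 to 17123 when strand is ignored, and the other genes hardly move apart from Snhg6.

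Stretches shared with other annotated genes bear on how the structural RNAs were counted. Of the 100-base stretches in Rn7sk, 61.2% also occur in other annotated genes (Gm24447, Gm26035 and Gm26315), so pairs inside them can map to more than 1 place and are then not counted. For Rpph1 60.9% occur in annotated Ccnb1ip1 transcripts, while Terc and Gas5 share none. All 172 stretches of Rmrp lie in another annotation of Rmrp itself or in Ccdc107 on the opposite strand.

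The snoRNAs inside the hosts could hardly be measured. The hosts hold 25 annotated snoRNA entries on their own strand, 10 in Gas5, 8 in Snhg1, 5 in Snhg12 and 1 each in Snhg6 and Snhg8. Snord80 in Gas5 and Snora16a in Snhg12 are each entered more than once at nearly the same place. Of the 25 entries, 24 overlap an annotated exon of the host. Where both exons are in the annotation used for counting, a pair over such a snoRNA belongs to both genes and is not counted. The overlaps were read from GENCODE M21 and the counts made with M15. Only 2 of the 25 had any count. Snord87 in Snhg6, the 1 snoRNA free of host exons, had 78 counts in all, 0 to 11 per library, and an annotated Snora16a in Snhg12, which does overlap a host exon, had 9. None reached a mean of 10 counts.

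The partners of these RNAs in the same pathways were read from lists. The counts called in MSUS females are given beside the 25.1% of all genes called in either direction. Of the 20571 genes tested, 2698 were called up and 2458 down, and the median log2 fold change over all genes was -0.0027. Protein subunits of RNase P and RNase MRP fell in 3 of 11 genes and rose in 0, with a list median of -0.065. These were Rpp25 (log2 fold change -0.18, SE 0.044, adjusted p = 0.0185), Pop5 (-0.19, adjusted p = 0.0458) and Pop4 (-0.13, adjusted p = 0.0910; edgeR for these and the following). Rpp25 separated the female groups, as 7.21% of all genes did, with means of 486 in Con and 427 in MSUS females. Ccnt2, Maf1, Snhg11, Eef2 and Smg1, named below, also separated them. Of 17 snoRNP proteins 2 fell, Nop10 (-0.16, adjusted p = 0.0198) and Nhp2 (-0.21, adjusted p = 0.0324), H/ACA proteins that also bind Terc, and the median was -0.020.

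Of 10 telomerase partners 3 passed. Nop10 and Nhp2 fell, and Tert, the reverse transcriptase, rose by 0.33 (SE 0.11, adjusted p = 0.0544) from 112 to 140 normalized counts, whereas in males its log2 fold change was -0.23 (SE 0.21, adjusted p = 1.00). The interaction for Tert was 0.56 (SE 0.24, adjusted p = 0.238), so the difference between the sexes did not pass. No telomerase partner rose without the filter on low counts, with the cortical marker sum as a covariate or in the fit of all 24 animals. Among 12 genes of the 7SK particle and P-TEFb 1 rose, the cyclin Ccnt2 (0.20, SE 0.029, adjusted p = 0.00276), with no overlap between the female groups, and Aff1 of the super elongation complex fell (-0.12, adjusted p = 0.0959), with a list median of 0.00095. The polymerase III machinery was mixed, with 3 of 26 up and 5 down and a median of -0.015. Tbp (0.17, adjusted p = 0.0236) and Snapc3 (0.15, adjusted p = 0.0404) rose, and Snapc5, like Snapc3 a subunit of the SNAPc complex that binds Rn7sk-type promoters, fell (-0.18, SE 0.061, adjusted p = 0.0589; named for its complex after its values were seen). Maf1, a repressor of polymerase III, also fell (-0.15, adjusted p = 0.0121).

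Of 13 other host lncRNAs 3 rose and 0 fell, with a median of 0.14, which was 0.037 with offsets for length and GC content and 0.053 with the cortical marker sum, with 2 up and 0 down in each. Snhg11, a neuron-enriched lncRNA, rose by 0.31 (SE 0.063, adjusted p = 0.00879) from 54569 to 67348 normalized counts without overlap, Snhg14, the long transcript of the imprinted Ube3a locus, by 0.31 (SE 0.071, adjusted p = 0.0148), and Snhg17 by 0.20 (SE 0.067, adjusted p = 0.0571). Protein-coding hosts outside the ribosome fell in 3 of 15, with Eef2 at -0.16 (adjusted p = 0.0119), Rack1 at -0.12 (adjusted p = 0.0397) and Tpt1 at -0.13 (adjusted p = 0.0542), and a median of -0.039. Nonsense-mediated decay factors rose in 2 of 15, the kinase Smg1 (0.16, adjusted p = 0.00555) and Upf3b (0.19, adjusted p = 0.0659), with a median of -0.024. With the share in no gene as a covariate 0 genes of any of these lists passed, and none passed in males. With offsets for length and GC content, RNase P and MRP proteins had 1 up and 1 down, protein-coding hosts 1 up and 1 down, snoRNP proteins 1 up and 2 down, decay factors 3 up and 1 down, and the polymerase III machinery 1 up and 2 down.

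**Figure D5:**
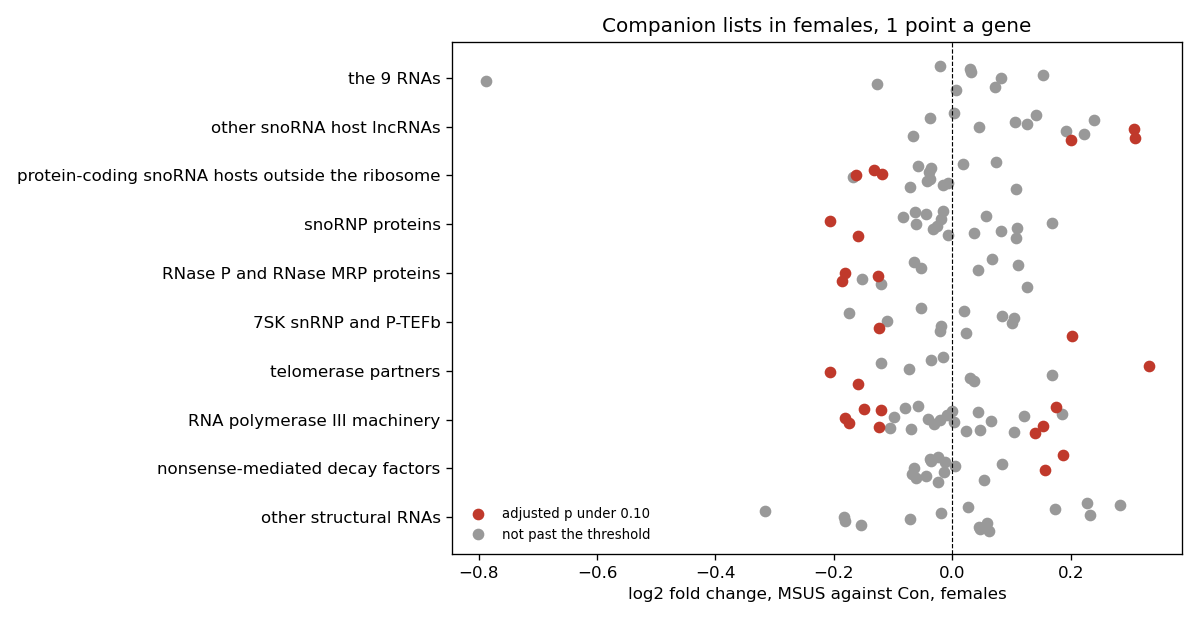
Log2 fold changes of MSUS against Con in females (horizontal axis), 1 point per gene, for the 9 RNAs and 9 lists of related genes. Red marks an adjusted p under 0.10, none of which is among the 9 RNAs or the other structural RNAs.

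Of 15 other structural RNAs that passed the filter 0 were called (edgeR), with log2 fold changes from -0.32 to 0.28 and a median of 0.045, and the smallest p belonged to Rn7s1, an RNA of the signal recognition particle (-0.32, SE 0.17, adjusted p = 0.208). Scarna2, a small Cajal body RNA, was the most abundant at 6842 normalized counts, with a log2 fold change of 0.045 (SE 0.059), and Scarna13 followed at 1340. Most U1 and U3 gene copies in the list stayed near 0 counts, and pairs that map to more than 1 place are not counted.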

How the data were processed

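The NAc RNA of 24 animals was measured by paired-end sequencing of ribosomal RNA-depleted libraries. The authors trimmed reads, mapped them with STAR to mm10 (annotation GENCODE M15) and deposited, per library, unnormalized counts of read pairs that mapped uniquely to each gene, in 3 strand columns. The column for the gene's own strand was used here. Pairs over exons of 2 genes and multi-mapping pairs are not counted, and rows of unassigned pairs were left out of library sizes. Gene models and sequences came from GENCODE M21, which matched 52489 of 52636 identifiers, and from RefSeq.

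Counts were filtered with filterByExpr (minimum count 10), normalized by TMM and tested with edgeR 4.0.16 (robust quasi-likelihood test, Benjamini-Hochberg adjustment over all genes, threshold 0.10) in R 4.3.3, with DESeq2 1.42.0 as an alternative. Each comparison used its own 12 animals and the interaction all 24. Intervals are 95% t intervals on the fitted SE. The procedure was tested on simulated counts. Correlations used 100000 permutations (numpy 2.4.6, scipy 1.17.1). Estrous stage was left out because the labels give a stage to the animals of library numbers 1 to 12, males included, and none to those of numbers 13 to 24. In 24 of 24 libraries the sex-linked genes went with the labelled sex, and no pair of libraries of a group agreed within counting noise.

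All 9 members are named. From each list the genes past the threshold in females are named, at most the 3 with the smallest p, or else the 1 with the smallest p. The members and lists were chosen with earlier results of these data known. The correlations among members and with markers, and the cortical marker covariate, were added after the data were seen. The cortical list leaves out 1 marker, which is not reported here. Other alternatives were size factors, low-count filters, unstranded counts, covariates, offsets for length and GC content, and leaving out each animal.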

Additional observations from a re-analysis of the deposited data

How the results depend on the processing

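With unstranded counts 6823 genes passed in females, with DESeq2 5786, with the replicate block 3800 and without the filter on low counts 3667. In the reported fit 5156 genes passed in females. This became 3126 at an adjusted p under 0.05, 0 with the share in no gene as a covariate, alone or with the replicate block, 3380 with offsets for length and GC content, 2108 with these and the replicate block, 2051 with the cortical marker sum as a covariate, and 3102 (without MSUS female 3) to 5737 with 1 animal left out. Members past the threshold, 0 as reported, became 1 with unstranded counts (Rpph1), with all 24 animals in 1 fit (Terc) and with the cortical marker sum (Rn7sk), and 0 to 1 with 1 animal left out. Interaction calls went from 0 to 467 with DESeq2 and 0 to 3031 (without MSUS male 1) with 1 animal left out. In the comparison of sexes among Con animals, 544 calls became 32 at an adjusted p under 0.05, 1511 with DESeq2, 338 without the filter, 1362 unstranded, 12 with the replicate block, 11 with the share in no gene, 1 with that share and the block, 229 with offsets, 13 with offsets and the block, 62 in the fit of all animals, 23 with the cortical marker sum and 20 (without Con female 4) to 1395 (without Con male 5) with 1 animal left out. Among MSUS animals 28 calls became 167 with DESeq2 (1 member, Rmrp), 16 with at least 10 counts in every animal, 71 with the library set, 13 with the share in no gene and the block, 11 with offsets and the block, and 14 to 64 (without MSUS male 1), with 0 to 1 members, when 1 animal was left out.

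Signs of members turned in the settings that follow, and of these only Rn7sk with the cortical marker sum passed the threshold after turning. In females, unstranded counts gave -0.020 for Rn7sk and -0.30 for Rmrp, and the share in no gene gave 0.069 for Rpph1. That share with the replicate block gave -0.13 for Rn7sk, -0.050 for Rmrp, 1.03 for Terc, -0.15 for Gas5, -0.12 for Snhg1 and -0.25 for Snhg6. Offsets for length and GC content gave -0.079 for Rn7sk, -0.012 for Gas5, -0.020 for Snhg1, -0.17 for Snhg6 and -0.12 for Snhg8, and with the replicate block -0.075, -0.0082, -0.014, -0.17 and -0.12. The cortical marker sum gave -0.16 for Rn7sk, -0.050 for Rmrp, -0.125 for Gas5, -0.081 for Snhg6 and -0.16 for Snhg8. With 1 animal left out, Rn7sk ranged from -0.030 to 0.030, Rmrp from -0.0037 to 0.15, Snhg6 from -0.000088 to 0.065, Snhg8 from -0.031 to 0.063 and Snhg12 from -0.041 to 0.0027. In males, unstranded counts gave 0.00010 for Rpph1, Rn7sk became 0.0039 with the share in no gene, 0.0081 with that share and the block, 0.036 with offsets, 0.036 with offsets and the block and 0.0037 with the cortical marker sum, and Rpph1 became 0.059 and 0.058 with offsets without and with the block. With 1 animal left out in males, Rn7sk ranged from -0.030 to 0.027, Rpph1 from -0.036 to 0.028 and Snhg1 from -0.016 to 0.084. The interaction became -0.22 for Rmrp unstranded, and 0.0037 and 0.034 for Rpph1 with the share in no gene without and with the block. It also turned for Snhg12 in 13 of 35 alternatives, Rn7sk in 12, Snhg8 in 9, Gas5 in 6, and Snhg1 and Snhg6 in 2 each. Between the sexes of Con animals, Snhg6 turned in 6 of 25 alternatives, Snhg12 in 5, Snhg8 in 4, Gas5 in 3 and Terc in 1. Among MSUS animals, Gas5 turned in 5 of 25, Rpph1 and Snhg12 in 3 each, Rn7sk in 2 and Snhg1 in 1. The r with the share in no gene turned to -0.047 for Rn7sk, 0.26 for Terc and -0.15 for Snhg8 in library numbers 13 to 24, to 0.053 for Rpph1 in numbers 1 to 12, and to 0.084 for Terc, 0.051 for Snhg6 and -0.0058 for Snhg8 without the 2 most extreme animals. The causes were not tested.

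Replicate numbers name animals but also follow the library sets. Odd numbers all fall in the set with the lower library numbers, and even numbers in the other set. The replicate block thus also takes up the library set. Same-numbered animals' deviations correlated above 0.1 in 3 of 6 female pairs. These were replicates 2, 4 and 6 (mean r 0.16, 0.25 and 0.11), against 0.053, -0.24 and -0.012 for replicates 1, 3 and 5. The replicate block called 0 members in each comparison. Terc had 5 to 45 counts per library, and counting error and variation between animals were not separated there. Few counts limit the snoRNAs inside the hosts.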
